A study of Mus musculus with 8 samples.

Results

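The 30 mouse genes described here make, move and export cholesterol or control its handling, and were listed by name. They cover its synthesis, control of that synthesis by the transcription factor SREBP2, sterol transport inside the cell, and efflux under the nuclear receptor LXR. A member counted as measured when the scanner marked its probe as well above background on each array of some group, and its brightest probe stood for the gene. All 30 listed members did so, among 25792 genes and unnamed probes that passed the same filter, and all 30 were well above background on all 8 arrays. Genes of the pathway outside the lists used were not analysed here.

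The samples were 3T3-L1 cells, a mouse preadipocyte line, grown with 10% fetal calf serum, kept for 1 week in adipogenic medium and then exposed to supernatant of HL-60 cells, a human promyelocytic leukaemia line. The HL-60 cells carried either a control (mock) vector or a knockdown of USP2, a ubiquitin-specific protease, and both kinds had become macrophage-like in Opti medium over 5 days with PMA, a phorbol ester, at 30 nM. The 4 groups were control supernatant for 3 h, knockdown supernatant for 3 h, control supernatant for 6 h and knockdown supernatant for 6 h, each with 2 arrays and each with supernatant diluted 2-fold. Every group thus received PMA-conditioned human supernatant, USP2 was lowered in the donor cells, whose RNA was not measured here, and no 3T3-L1 group without supernatant was analysed here. The labels call the 2 arrays of a group biological replicates without saying whether wells shared a supernatant, so a p-value here reflects the spread among these samples alone, which may be technical. All 8 arrays lay on 1 slide, with control in slide columns 1 and 2, knockdown in slide columns 3 and 4, 3 h in slide row 1 and 6 h in slide row 2. Supernatant and slide column, and time and slide row, cannot be told apart.

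Levels are log2 processed signals relative to each array's own 75th percentile, so that 0 is that percentile, and they are compared between arrays for 1 gene, never between genes. The 75th percentiles lay between 470 and 614 signal units, and 50.7% to 55.9% of spots were well above background. The labels call the cells adipocytes. Of 11 adipocyte markers, 4 exceeded background clearly on all 8 arrays (Pparg, Cebpa, Fabp4 and Lpl) and 6 on none (Cidec, Adipoq, Cd36, Cfd, Slc2a4 and Lep), while all 8 preadipocyte and fibroblast markers were on all 8. Some adipocyte markers were therefore present, while others that mark mature fat cells, such as Adipoq and Cfd, were not detected. In such bulk RNA, fewer cells of a type and less RNA per cell cannot be told apart.

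Cells build cholesterol from acetyl-CoA through mevalonate, farnesyl diphosphate, squalene and a series of sterols. When sterols in the endoplasmic reticulum run low, SCAP escorts SREBP2 to the Golgi, where it is cleaved into a transcription factor for synthesis and uptake genes, and the INSIG proteins hold the SCAP complex back when sterols are plentiful. Oxysterols, which signal excess, activate the LXR receptors, which induce the exporters ABCA1 and ABCG1 and the ligase MYLIP. Fat tissue is a large store of free cholesterol, and LXRalpha, encoded by Nr1h3, is the LXR form known to be abundant in fat cells.

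RefSeq promoters (build GRCm38.p6, 250 bases before to 50 after the annotated start, 300 bases in all) were matched for 24 of the 30 members. Fdps, Fdft1, Sqle, Stard4, Npc1 and Abcg1 had no entry. Each window was searched on both strands for TCACNCCAC, a core of the sterol regulatory element, for CCAAT, the NF-Y box, for GGGCGG, the core of the SP1 box, and for the LXR element (a direct repeat with 4 bases between). Some genes have several windows, and a gene counts here when any of them holds the motif. CCAAT was present in 19 of 24 members, against 41.1% of all 27025 genes with a window (37.4% of the 32851 windows). GGGCGG was present in 21 of 24, against 38.2% of genes (35.7% of windows). TCACNCCAC was found in 1 member, Hmgcs1, and in 1.44% of genes (1.24% of windows), and the exact LXR repeat in no member and in 0.0148% of genes (0.0152% of windows). CCAAT was missing from Acat2, Scap, Abca1, Nr1h2 and Nr1h3, and GGGCGG from Pmvk, Nr1h2 and Nr1h3. A match describes these letters and is not a binding site, and a missing match says only that the letters are not in this window. Of the promoters shown because their genes carry the results below, Hmgcs1 (chr13:119690101-119690400, plus strand) belongs to a gene called higher at 6 h with knockdown supernatant alone. Mvk (chr5:114444019-114444318, plus strand) belongs to one called higher with both supernatants, and Cyp51 (chr5:4104648-4104947, minus strand) to one called lower with both. Nr1h3 (chr2:91195067-91195366, minus strand, the first of its RefSeq windows) belongs to the LXR gene. Capitals mark TCACNCCAC and CCAAT on either strand.
Hmgcs1: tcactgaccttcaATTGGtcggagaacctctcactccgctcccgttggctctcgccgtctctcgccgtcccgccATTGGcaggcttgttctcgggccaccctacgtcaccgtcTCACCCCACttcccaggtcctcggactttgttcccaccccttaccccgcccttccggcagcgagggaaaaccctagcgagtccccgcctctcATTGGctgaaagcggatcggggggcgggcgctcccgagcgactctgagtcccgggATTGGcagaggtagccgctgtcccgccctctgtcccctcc
Mvk: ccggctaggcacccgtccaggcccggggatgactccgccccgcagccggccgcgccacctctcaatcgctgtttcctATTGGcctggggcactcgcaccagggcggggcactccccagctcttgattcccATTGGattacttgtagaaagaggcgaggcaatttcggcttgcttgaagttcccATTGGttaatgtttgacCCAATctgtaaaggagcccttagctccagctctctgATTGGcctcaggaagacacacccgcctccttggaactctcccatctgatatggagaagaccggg
Cyp51: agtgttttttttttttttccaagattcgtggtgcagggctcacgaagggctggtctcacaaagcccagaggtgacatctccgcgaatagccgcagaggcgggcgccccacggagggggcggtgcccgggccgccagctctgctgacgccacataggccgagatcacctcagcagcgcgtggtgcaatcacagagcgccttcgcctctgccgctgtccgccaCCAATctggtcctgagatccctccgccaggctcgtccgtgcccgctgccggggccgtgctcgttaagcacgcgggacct
Nr1h3: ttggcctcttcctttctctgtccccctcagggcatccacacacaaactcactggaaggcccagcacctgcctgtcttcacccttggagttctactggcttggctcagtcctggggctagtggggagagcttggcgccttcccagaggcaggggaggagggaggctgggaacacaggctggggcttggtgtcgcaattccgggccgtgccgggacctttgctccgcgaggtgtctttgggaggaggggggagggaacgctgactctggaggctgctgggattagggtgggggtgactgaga
In Mvk the CCAAT box occurred 5 times, 4 of them as its reverse ATTGG, and in Hmgcs1 4 times beside the TCACCCCAC match that begins 137 bases before the start. Cyp51 held 1 CCAAT, which begins 29 bases before the start. The Nr1h3 window held no match to any of the 4 motifs.

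The first question was whether supernatant of USP2 knockdown cells changed these genes relative to control supernatant. The member that passed the test was Nr1h3, which encodes LXRalpha: it was lower on every knockdown array than on every control array of the same time. Averaged over both times it fell by 0.30 ± 0.046 (SE) on the log2 scale, a 1.23-fold difference. No other member passed the test in any supernatant comparison. Differences for the enzymes of synthesis were small, and none of the 30 members had a 95% interval reaching beyond a 1.38-fold change at 3 h or a 1.41-fold change at 6 h.

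By limma with Benjamini-Hochberg adjustment over all 25792 features, 0 of 30 members were called at 3 h (0.248% of all features called, 0.225% higher and 0.0233% lower) and 0 of 30 at 6 h (2.23% called, 1.52% higher and 0.702% lower), at an adjusted p under 0.05. At an unadjusted p under 0.05 there were 3 at 3 h (Nr1h3, Mylip and Npc1), where 10.6% of all features had one, and 2 at 6 h (Nr1h3 and Sc5d), where 19.0% did. Averaged over the times, 1 of 30 was called, Nr1h3, against 3.06% of all features, 2.11% called higher and 0.954% lower. No member was called for a difference between the effects at 6 h and 3 h: 0 of 30 and 0.0% of all features passed, where 0 members and 2226 features had an unadjusted p under 0.05. The members' median difference was -0.025 at 3 h (all features -0.018), 0.027 at 6 h (all features -0.0093) and 0.0090 averaged (all features -0.017). The median at 3 h turned to 0.054 with scaling by the array median, and the averaged one to -0.011 with quantile normalization and to -0.0093, -0.013 and -0.0026 without the second control or second knockdown array of 3 h or the second knockdown array of 6 h.

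**Figure D1:**
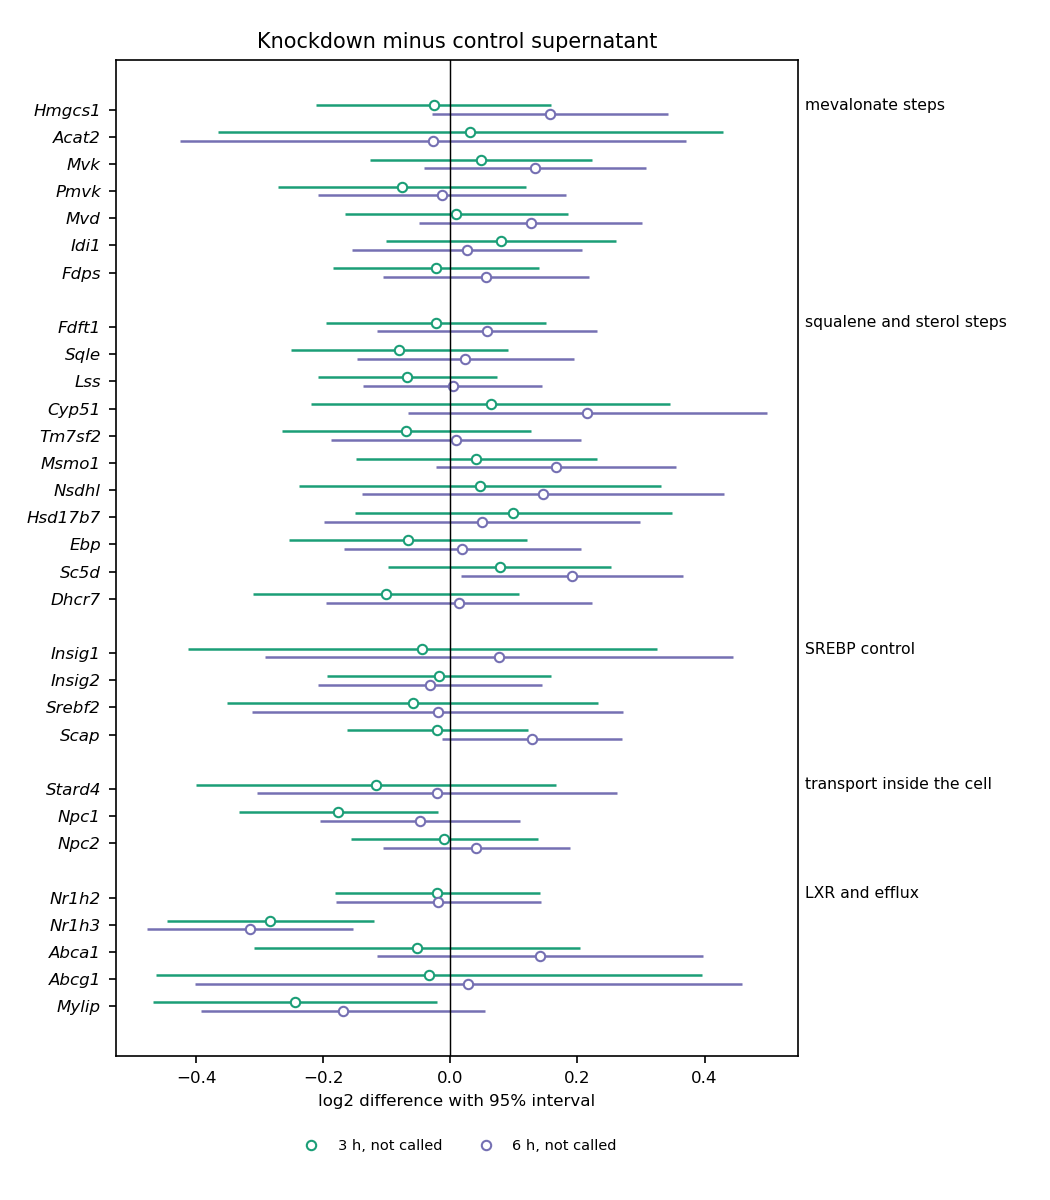
Log2 difference, knockdown minus control supernatant, for the 30 members at 3 h (green) and 6 h (purple), with 95% intervals of the limma fit on the x axis and genes grouped by role. Open circles are differences that were not called, which is all of them at the single times; Nr1h3 lies furthest below 0, at -0.28 and -0.32.

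Among the LXR genes, Nr1h3 read -0.40 and -0.49 with control supernatant against -0.69 and -0.76 with knockdown supernatant at 3 h, and 0.71 and 0.70 against 0.41 and 0.37 at 6 h. The knockdown arrays were lower at each time without overlap. The difference was -0.28 ± 0.066 at 3 h (95% interval -0.45 to -0.12, adjusted p = 0.21) and -0.32 ± 0.066 at 6 h (-0.48 to -0.15, adjusted p = 0.0848), and its average had an adjusted p of 0.0344. The effects at 6 h and 3 h differed by -0.033 ± 0.093 (adjusted p = 0.924). A further Nr1h3 probe showed the same order, with -1.55 and -1.62 on control against -1.86 and -1.85 on knockdown arrays at 3 h, and -0.21 and -0.23 against -0.60 and -0.67 at 6 h. The averaged call was near the threshold: it was lost with array median scaling (a difference of -0.17, adjusted p = 0.14), with no scaling (0.456), with no filter on dim probes (0.217), with the replicate block (0.0532) and in 7 of 8 fits that left out 1 array, being kept only without the second control array of 6 h (0.0399) and reaching 0.141 without the first control or the second knockdown array of 3 h.

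The summed macrophage marker signal was higher on the knockdown arrays at 3 h and overlapped at 6 h. Summed over the 7 macrophage and leukocyte markers with a named probe, the signal (in units of each array's 75th percentile) was 40.0 to 42.3 on control and 49.6 to 51.6 on knockdown arrays at 3 h, and 34.0 to 39.7 against 33.9 to 36.2 at 6 h. Of the 8 listed, Csf1r, Itgam and Lyz2 were well above background on all 8 arrays, and Ptprc, Adgre1 and Tyrobp on none. Over those 3 alone, a sum added after the values were seen, the signal was 39.9 to 42.2 against 49.5 to 51.5, and 33.9 to 39.6 against 33.6 to 36.1. On average 93.0% of the summed signal came from the Itgam probe and 6.34% from that of Csf1r, so the sum is mainly that of 1 gene. Their part in the Nr1h3 difference was not tested. The adipocyte sums were 58.3 to 61.1 on control and 60.9 to 62.0 on knockdown arrays at 3 h, and 54.9 to 56.4 against 53.9 to 55.1 at 6 h. On average 61.4% of the adipocyte sum came from Fabp4 and 30.8% from Lpl, so it mainly reflects these genes.

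Mylip, an LXR-induced ubiquitin ligase that sends lipoprotein receptors to degradation, had the next largest difference in the averaged comparison. It read 2.14 and 2.20 (control), and 2.04 and 1.81 (knockdown), at 3 h, and 2.40 and 2.45 against 2.27 and 2.24 at 6 h. The knockdown arrays were again lower at both times, but the difference was not called (-0.25 ± 0.090 at 3 h, -0.17 ± 0.090 at 6 h, -0.21 ± 0.064 averaged with adjusted p = 0.162). Arrays that were lower at both times without overlap were found for 2 members, Nr1h3 and Mylip, and for 8.96% of all features with a value on every array. The exporters did not share this order: Abca1 differed by -0.053 at 3 h and by 0.14 at 6 h, and Abcg1 by -0.034 and 0.028. Nr1h2, which encodes LXRbeta, differed by -0.020 and -0.019 (95% interval at 6 h -0.18 to 0.14).

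Among the enzymes, 2 members were higher on both knockdown arrays at both times, Msmo1 and Sc5d, against 9.53% of all features, and 0 members had arrays apart in opposite directions at the 2 times, against 6.04%. Sc5d, the sterol C5-desaturase near the end of the pathway, read 3.94 and 3.83 on control against 3.96 and 3.97 on knockdown arrays at 3 h, and 3.45 and 3.50 against 3.62 and 3.72 at 6 h. Its difference at 6 h was 0.19 ± 0.071 (0.016 to 0.37), with an adjusted p of 0.232. Msmo1, the sterol C4-methyl oxidase, read 5.94 and 5.97 against 6.00 and 5.99 at 3 h, and 5.58 and 5.40 against 5.65 and 5.66 at 6 h. The separation at 3 h was a few hundredths of a log2 unit, smaller than the gap between the control arrays of 6 h.

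The sterol steps as a group lay close to 0. At 3 h the 11 differences ranged from -0.10 to 0.099 with 5 above 0, and at 6 h all 11 were above 0, from 0.0035 to 0.22, with a median of 0.050. Of all 25792 features, 11655 were above 0 at 3 h and 12393 at 6 h. Scaling moved differences near 0: the 6 h median of all 30 members was 0.027 as reported. It was 0.0029 with quantile normalization and 0.22 with array median scaling. The highest at 6 h was Cyp51, the lanosterol demethylase, at 0.22 ± 0.11 (-0.067 to 0.50), and its arrays overlapped. The 7 mevalonate genes differed by -0.076 to 0.079 at 3 h and by -0.027 to 0.16 at 6 h. At the upper end was Hmgcs1, HMG-CoA synthase, whose knockdown arrays (5.45 and 5.56) exceeded its control arrays (5.40 and 5.30) at 6 h, while at 3 h 5.23 and 5.19 stood against 5.28 and 5.19. None of these passed the test.

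In SREBP control and transport no gene was called either. Npc1, which moves cholesterol out of lysosomes, read 0.19 and 0.23 on control against 0.0089 and 0.052 on knockdown arrays at 3 h, and -0.087 and -0.030 against -0.15 and -0.068 at 6 h. It was lower without overlap at 3 h only (-0.18 ± 0.063, adjusted p = 0.414). Scap, the SREBP escort, read 3.69 and 3.63 against 3.64 and 3.64 at 3 h and 3.87 and 3.86 against 3.98 and 4.0 at 6 h, a 6 h difference of 0.13 ± 0.057. Insig1, the SREBP target that retains SCAP, differed by -0.044 and 0.077, and Srebf2, which encodes SREBP2, by -0.059 and -0.020. Counted by arrays that did not overlap, 3 members were higher and 9 lower at 3 h (20.2% and 26.9% of all features), and 7 higher and 2 lower at 6 h (24.7% and 23.0%).

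The second question was how the genes stood at 6 h relative to 3 h within each supernatant. In the LXR group Nr1h3 rose by 2.17-fold to 2.22-fold, and the exporters Abca1 and Abcg1 rose by 1.51-fold to 2.00-fold. The synthesis enzymes split. Mvk and Dhcr7 rose with both supernatants, while Fdps, Cyp51, Tm7sf2, Msmo1 and Sc5d fell with both. These directions did not turn under any scaling tried, but sizes moved by over 1.5 times for some: with control supernatant, Mvk rose by 0.33 and Dhcr7 changed by 0.29 (adjusted p = 0.11) with array median scaling, and Sc5d fell by 0.21 with quantile normalization.

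With control supernatant, 7 of 30 members were called higher and 7 lower, where 39.7% of all features were called (16.3% higher and 23.4% lower). With knockdown supernatant, 9 were called higher and 8 lower, where 40.1% of all features were called (17.5% higher and 22.6% lower). With both supernatants, 6 members were called higher (Mvk, Dhcr7, Scap, Abca1, Abcg1 and Nr1h3; 13.8% of all features) and 6 lower (Fdps, Cyp51, Tm7sf2, Msmo1, Sc5d and Nr1h2; 18.0%), and none in opposite directions. Since so many features were called, these counts describe the members and are not particular to them. By arrays that did not overlap, 10 members were higher and 13 lower at 6 h with control supernatant (26.9% and 40.2% of all features), and 14 higher and 13 lower with knockdown supernatant (29.5% and 48.3%). The median change was -0.043 with control supernatant (all features -0.071), turning to 0.017 without scaling and 0.063 with quantile normalization, and 0.037 with knockdown supernatant (all features -0.11), turning to -0.046 with array median scaling. Leaving out 1 array moved the counts by over 1.5 times: 9 members were called with control supernatant without its second 3 h array, and 7, 7, 8 and 10 with knockdown supernatant without the first or second 3 h or the first or second 6 h knockdown array. Without scaling the counts were 3 and 5, all higher. The calls kept in every alternative and every fit without 1 array were Mvk, Nr1h3 and Abcg1 with control supernatant, and Mvk, Dhcr7, Nr1h3, Abca1 and Abcg1 with knockdown supernatant.

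**Figure D2:**
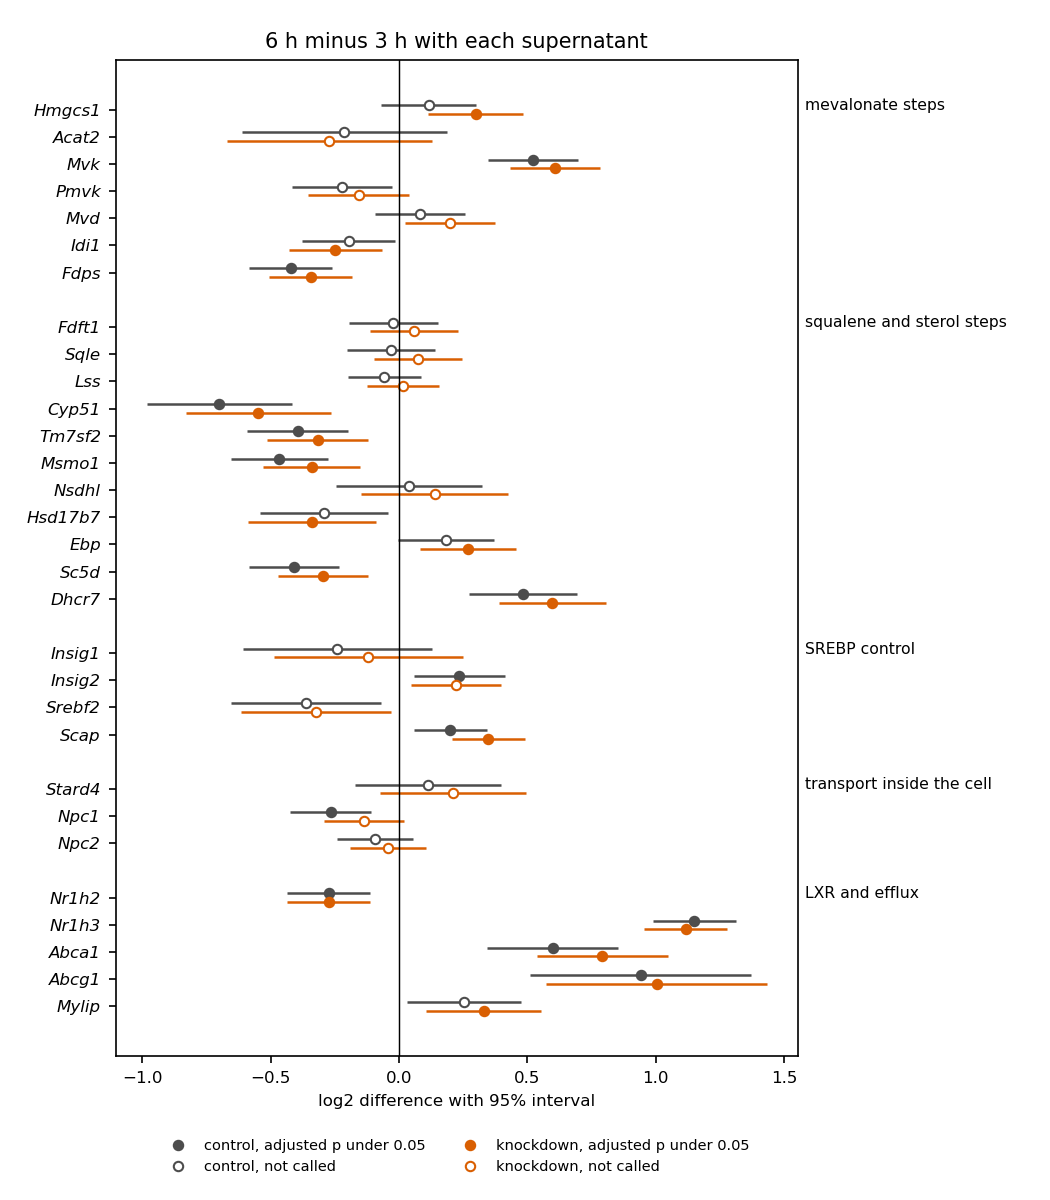
Log2 change from 3 h to 6 h for each member with control and with knockdown supernatant, as the limma estimate with its 95% interval; filled points were called at an adjusted p under 0.05. Nr1h3 lies furthest to the right, at 1.15 and 1.12, and Cyp51 furthest to the left, at -0.70 and -0.55.

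In the mevalonate steps, Mvk, mevalonate kinase, read 3.08 and 3.21 (control supernatant) and 3.18 and 3.22 (knockdown supernatant) at 3 h, then 3.70 and 3.65, and 3.83 and 3.78, at 6 h. Every 6 h array was above every 3 h array. It rose by 0.52 ± 0.071 with control (adjusted p = 0.0025) and 0.61 ± 0.071 with knockdown supernatant (adjusted p = 0.0015), and a further Mvk probe by 0.36 and 0.45. Fdps, farnesyl diphosphate synthase, went the other way: 6.59 and 6.53 (control), and 6.56 and 6.52 (knockdown), at 3 h, then 6.18 and 6.09, and 6.18 and 6.21. It fell by 0.42 ± 0.065 (adjusted p = 0.00416) and 0.34 ± 0.065 (adjusted p = 0.00923) with no overlap.

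Hmgcs1 and Idi1 were called with knockdown supernatant alone, in opposite directions. Hmgcs1, whose array values stand above, rose by 0.30 ± 0.075 there (adjusted p = 0.024), and its change with control supernatant was 0.12 ± 0.075 (adjusted p = 0.279). Idi1, isopentenyl diphosphate isomerase, read 4.04 and 4.08 (control), and 4.17 and 4.10 (knockdown), at 3 h, then 3.94 and 3.79, and 3.91 and 3.87. It fell by 0.25 ± 0.073 with knockdown supernatant (adjusted p = 0.0416), and its change with control supernatant was -0.19 ± 0.073 (adjusted p = 0.0856). The difference between supernatants was not called for either gene. Both calls were lost without either 3 h knockdown array and without the second 6 h knockdown array, and that of Idi1 also without the first 6 h knockdown array or either 3 h control array (adjusted p up to 0.115 for Hmgcs1 and 0.184 for Idi1). The remaining 3 genes, Acat2, Pmvk and Mvd, were not called, with changes of -0.27 to 0.20.

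In the squalene and sterol steps, 1 gene was called higher and 4 lower of 11 with control supernatant, and 2 higher and 5 lower with knockdown supernatant, beside 16.3% and 23.4%, and 17.5% and 22.6%, of all features. Dhcr7, which reduces 7-dehydrocholesterol to cholesterol, read -0.18 and -0.20 (control), and -0.33 and -0.26 (knockdown), at 3 h, then 0.21 and 0.38, and 0.24 and 0.37. It rose by 0.48 ± 0.085 (adjusted p = 0.00658) and 0.60 ± 0.085 (adjusted p = 0.00308). The other call upwards was Ebp, the sterol isomerase, at 0.27 ± 0.075 with knockdown supernatant (adjusted p = 0.0346), against 0.18 with control (adjusted p = 0.108).

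Cyp51 showed the largest fall of any member: 0.15 and 0.055 (control), and 0.20 and 0.13 (knockdown), at 3 h, then -0.71 and -0.49, and -0.50 and -0.26. It fell by 0.70 ± 0.11 with control (1.62-fold, adjusted p = 0.00504) and 0.55 ± 0.11 with knockdown supernatant (1.46-fold, adjusted p = 0.0128). Msmo1 and Sc5d, which act on later sterols, moved the same way, with no overlap between times. Msmo1 fell by 0.47 ± 0.077 (adjusted p = 0.0052) and 0.34 ± 0.077 (adjusted p = 0.0168), from the levels given above, and Sc5d by 0.41 ± 0.071 (adjusted p = 0.00629) and 0.29 ± 0.071 (adjusted p = 0.0209). Tm7sf2, a sterol C14-reductase, fell by 0.39 and 0.32. Hsd17b7, a sterol ketoreductase, fell by 0.34 with knockdown supernatant (adjusted p = 0.0421), and its change with control supernatant was -0.29 (adjusted p = 0.0687). Fdft1, Sqle, Lss and Nsdhl, at the entry to the branch and in C4 demethylation, changed by -0.057 to 0.14 and were not called. With knockdown supernatant, the calls of Cyp51 and Sc5d were lost without either 3 h or the first 6 h knockdown array, those of Msmo1, Tm7sf2 and Ebp without any 1 of the 4 knockdown arrays, and that of Fdps without the first array of either time (adjusted p up to 0.159 among these). That of Hsd17b7 was lost in 7 of 8 such fits, with an adjusted p of up to 0.184, and Tm7sf2 with control supernatant without the second 3 h control array (0.065).

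**Figure D3:**
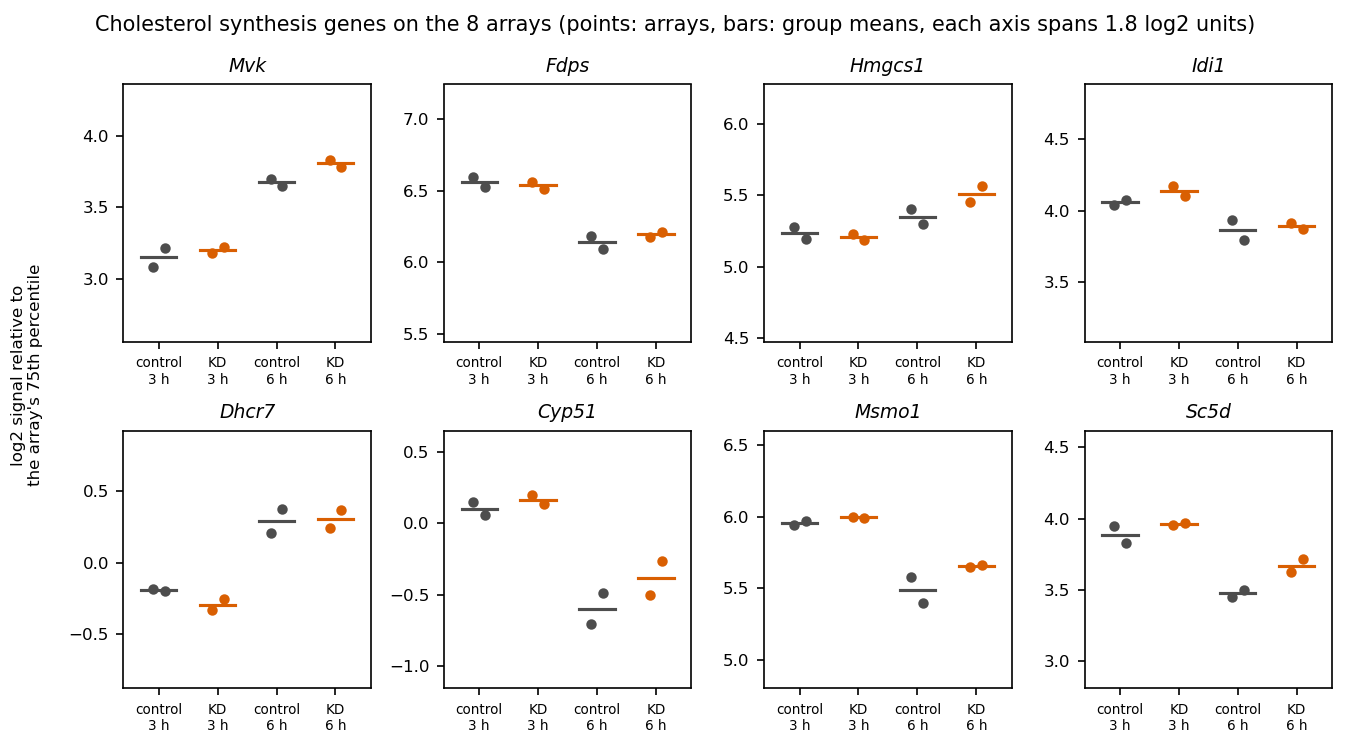
Log2 level relative to the array's 75th percentile of 8 synthesis genes on each of the 8 arrays (points), with group means (bars), for control (grey) and knockdown (KD, orange) supernatant at 3 h and 6 h. Mvk and Dhcr7 stand higher at 6 h in both supernatants, and Fdps, Cyp51, Msmo1 and Sc5d lower; each axis spans the same log2 range.

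Among the 4 SREBP control genes, Scap and Insig2 were called higher. Scap rose by 0.20 ± 0.057 with control (adjusted p = 0.0381) and 0.35 ± 0.057 with knockdown supernatant (adjusted p = 0.00539, or 0.0517 with array median scaling and 0.0652 without scaling). Insig2, the INSIG form that does not depend on SREBP, read 3.32 and 3.31 (control), and 3.29 and 3.31 (knockdown), at 3 h, then 3.48 and 3.63, and 3.53 and 3.51. It rose by 0.24 ± 0.071 with control supernatant (adjusted p = 0.0453), and its change with knockdown supernatant was 0.22 ± 0.071 (adjusted p = 0.0538). The control calls of these genes depended on the processing. Each was lost in 8 of 13 alternatives, and with array median scaling the change was 0.0066 for Scap (adjusted p = 0.955) and 0.042 for Insig2 (adjusted p = 0.765). The call of Scap was lost in all 8 fits without 1 array (adjusted p up to 0.171) and that of Insig2 in 7 of 8 (up to 0.153, kept without the first 6 h control array). Srebf2 was lower on every 6 h array but not called, at -0.36 (adjusted p = 0.057) and -0.32 (adjusted p = 0.0778), and Insig1 changed by -0.24 and -0.12 with overlapping control arrays.

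Of the transport genes, Npc1 fell by 0.27 ± 0.063 with control supernatant (adjusted p = 0.0201) and its change with knockdown supernatant was -0.14 ± 0.063 (adjusted p = 0.141). The difference between those changes was 0.13 ± 0.090 and was not called. The control call was lost without either 3 h control or the first 6 h control array. Over the fits without 1 array that change was -0.29 to -0.24. The control call was also lost in 4 of 13 alternatives (adjusted p up to 0.504). These were normexp background, no scaling, no filter on dim probes and a fit of only the arrays compared. Npc2, the lysosomal partner that hands sterol to NPC1, changed by -0.093 and -0.043. Stard4, a soluble sterol carrier, gave changes of 0.11 and 0.21 on the probe used and of -0.75 and -0.60 on a further probe, so its direction over time depended on the probe.

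Of the members, Nr1h3 had the largest rise with each supernatant. It rose by 1.15 ± 0.066 with control supernatant (2.22-fold, adjusted p = 0.000181) and 1.12 ± 0.066 with knockdown supernatant (2.17-fold, adjusted p = 0.000206), and its further probe rose by 1.36 and 1.22. Every 6 h array of Nr1h3, knockdown included, stood above every 3 h array. Nr1h2, the other LXR gene, moved the other way: 4.45 and 4.47 (control), and 4.41 and 4.48 (knockdown), at 3 h, then 4.23 and 4.15, and 4.19 and 4.15. It fell by 0.27 ± 0.065 with each supernatant (adjusted p = 0.0198 and 0.0205). The control call was lost without either array of 3 h control or the second of 6 h control. The knockdown call was lost without any 1 of the 4 knockdown arrays. Over the fits without 1 array the changes were -0.32 to -0.23 and -0.31 to -0.24. These calls were also lost in 5 and 4 of 13 alternatives (adjusted p up to 0.403 and 0.709). Both were lost with normexp background, no scaling, quantile normalization and no filter on dim probes. The smallest changes over the alternatives were -0.097 and -0.11.

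The exporters rose as well. Abca1, which loads cholesterol onto apolipoprotein A-I, read 0.62 and 0.51 (control), and 0.45 and 0.58 (knockdown), at 3 h, then 1.10 and 1.23, and 1.2 and 1.41. It rose by 0.60 ± 0.10 (1.51-fold, adjusted p = 0.00629) and 0.79 ± 0.10 (1.73-fold, adjusted p = 0.00228). Its call with control supernatant was lost with array median scaling and with no scaling (adjusted p up to 0.0577). Abcg1, which exports cholesterol to high-density lipoprotein, read -3.17 and -3.19 (control), and -3.31 and -3.11 (knockdown), at 3 h, then -2.47 and -2.01, and -2.33 and -2.09. It rose by 0.94 ± 0.17 (1.92-fold, adjusted p = 0.00799) and 1.00 ± 0.17 (2.00-fold, adjusted p = 0.00652). With normexp background correction (offset 50) these changes of Abcg1 were 0.55 and 0.52, still called. No 6 h array of either exporter overlapped a 3 h array. Mylip rose by 0.33 ± 0.090 with knockdown supernatant (adjusted p = 0.0328), a call lost in 5 of 8 fits without 1 array (up to 0.129) and with the mean of its probes (0.819), and its change with control supernatant was 0.25 ± 0.090 (adjusted p = 0.0742). A further, dimmer Mylip probe gave -0.31 with control and 0.19 with knockdown supernatant over time, from 1 control array at 6 h, and knockdown differences of -0.54 at 3 h and -0.042 at 6 h. The summed signals of adipocyte and macrophage markers given above were lower at 6 h than at 3 h while Nr1h3, Abca1 and Abcg1 were higher, and their part in these changes was not tested.

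**Figure D4:**
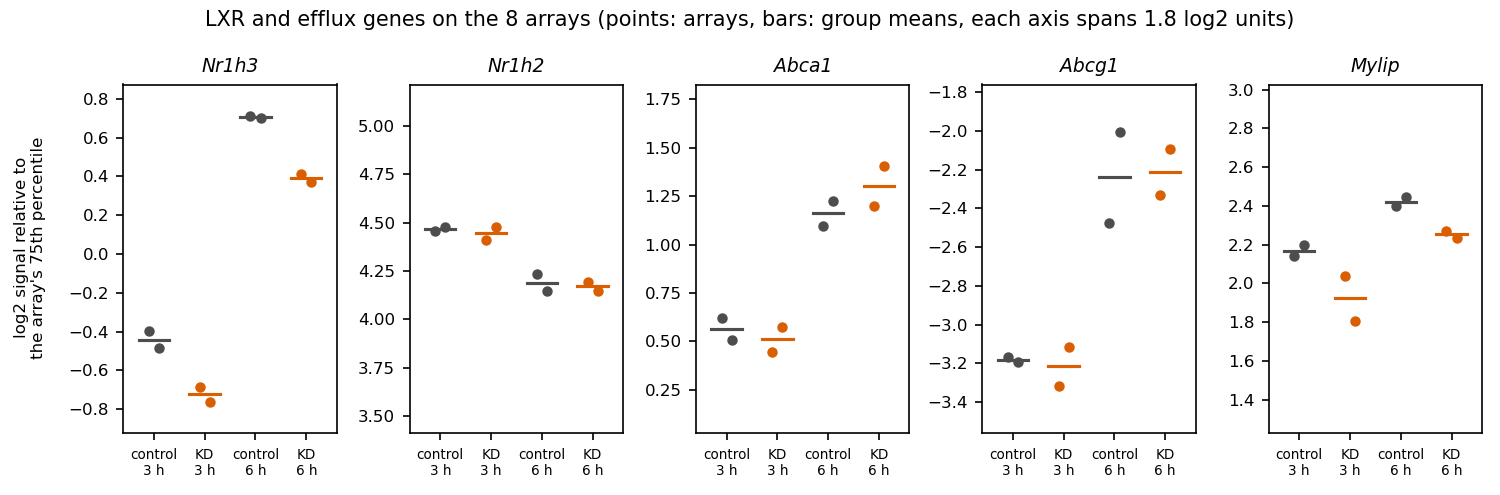
Log2 level relative to the array's 75th percentile of the 5 LXR and efflux genes on each of the 8 arrays (points), with group means (bars), for control (grey) and knockdown (KD, orange) supernatant at 3 h and 6 h. Nr1h3, Abca1 and Abcg1 stand higher at 6 h, Nr1h2 lower, and the knockdown points of Nr1h3 and Mylip lie below the control points at both times.

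A further list held 47 genes of the same pathways, of which 45 were measured. None was called for the supernatant at 3 h, at 6 h or averaged (4, 6 and 9 had an unadjusted p under 0.05, as did 10.6%, 19.0% and 19.6% of all features). Of the 45, 19 differences were above 0 at 3 h and 24 at 6 h. The largest at each time was that of Ch25h, an oxysterol gene, at 0.75 and 0.59. It read -1.58 and -1.39 on control against -0.62 and -0.85 on knockdown arrays at 3 h. At 6 h it read -2.87 and -2.16 against -1.98 and -1.87. The knockdown arrays of Ch25h were higher at each time without overlap, but it was not called. The limma intervals of the list reached up to a 2.51-fold change at 3 h and 2.25-fold at 6 h. Over time 10 were called higher and 16 lower with control supernatant (16.3% and 23.4% of all features), and 12 and 17 with knockdown supernatant (17.5% and 22.6%). Of the synthesis partners, Ggps1, geranylgeranyl diphosphate synthase, fell by 0.94 and 0.80 (control, then knockdown supernatant), Por, the electron donor of CYP51, fell by 0.92 and 0.73, and Dhdds, of dolichol synthesis, rose by 0.54 and 0.44. Of SREBP processing and sterol-dependent degradation, Erlin2 rose by 0.49 and 0.64, Rnf145 rose by 0.36 and 0.47, and Rnf139 fell by 0.92 and 0.69. Rnf145 and Rnf139 are ubiquitin ligases of the endoplasmic reticulum, and Erlin2 is a membrane scaffold there. Of transport, Gramd1b and Gramd1c, which carry sterol from the plasma membrane, rose by 0.92 and 0.80 and by 0.65 and 0.85, and Osbpl2 fell by 0.95 and 0.90. Of the LXR partners and oxysterol genes, Cyp7b1, an oxysterol hydroxylase, rose by 0.93 with each supernatant, Abcg4, a relative of Abcg1, fell by 1.26 and 1.37, and Rxra, the LXR partner, fell by 0.57 and 0.69. Without 1 array, the call of Rnf139 was lost with control supernatant when the first 3 h control array was dropped, and with knockdown supernatant when any 1 of the knockdown or 3 h control arrays was, and that of Rnf145 was lost without the first 3 h control, either 3 h knockdown or the second 6 h control array, and without the second knockdown array of either time, respectively (adjusted p up to 0.131). Abcg4 moved opposite to Abcg1 and Rxra opposite to Nr1h3.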

How the data were processed

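The authors deposited 1 scanner file per array with a processed intensity for every spot, which per the file headers is background-subtracted and not scaled between arrays. The submitters' processing notes name Agilent Feature Extraction 10.7.3.1. The authors also deposited log2 values, which differed from the log2 of this intensity by a single constant on each array (correlation 1.00, not centred per gene, medians -4.23 to -3.95) and was used as an alternative.

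Outlier spots (163 to 319 of 59305 per array) were dropped, 0 spots were saturated, and log2 signals had each array's 75th percentile subtracted. Of 55681 probes, 27235 were named through RefSeq transcripts (GRCm38.p6, for names only), 20 by symbol or synonym, and 28426 stayed unnamed. Probes entered when each array of some group showed them well above background. Group means were estimated with lmFit and eBayes of limma 3.58.1 in R 4.3.3 (degrees of freedom: 4 residual, 1.74 prior). Adjustment was over all 25792 features in each of 6 comparisons. Non-overlap counts used the features with a value on every array.

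Values on every array are given for members called in any comparison, at most 4 per role, those with the smallest p. Other members named with array values (Mylip) or with changes were chosen after their values were seen. Of the further list, up to 3 per group were named by the same rule. Ch25h, with the largest supernatant difference of that list, was named in addition, after its values were seen. The members and lists were chosen with earlier results of these data known. The number of arrays limits the precision. Tables and figures used pandas 2.3.3, numpy 2.4.6 and matplotlib 3.10.9 under Python 3.11.15. Alternatives covered background, scaling, filter, probe choice, variance trend, array weights, arrays fitted, bright patches (0 member values lay in one), a replicate block and each array left out.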

Additional observations from a re-analysis of the deposited data

How the results depend on the processing

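Of the calls of members, none changed sign under any alternative. With control supernatant 3 of 14 time calls, and with knockdown supernatant 5 of 17, were kept in all 21 alternatives. Scaling moved whole comparisons: array median scaling shifted the median of all features by 0.19 for the knockdown at 6 h, 0.13 averaged, 0.11 for the difference of effects and -0.19 over time with control supernatant, and no scaling by 0.11 for the difference and 0.17 over time with knockdown supernatant. Called features that were higher at 6 h in the knockdown comparison made up 68.5%, but 89.9% with array median scaling and 54.0% without scaling; averaged 68.8% became 91.0%; over time with control supernatant 41.1% became 22.2%, and with knockdown supernatant 43.7% became 33.0%, or 67.0% without scaling. The members' median for the knockdown at 3 h was 0.054 with array median scaling and -0.075 without scaling. At 6 h it was 0.064 with normexp, 0.22 with array median scaling, 0.084 without scaling, 0.0029 with quantile normalization and 0.061 from the deposited table. Averaged it was 0.14 with array median scaling and -0.011 with quantile normalization. For the difference of effects (0.082 as reported) it was 0.19 with array median scaling and 0.19 without scaling, 0.052 with quantile normalization and 0.11 from the deposited table. Over time with control supernatant it was -0.24, 0.017, 0.063 and -0.075 in that order, and -0.075 with the mean of a gene's probes. With knockdown supernatant it was -0.046 with array median scaling, 0.20 without scaling, 0.12 with quantile normalization and -0.081 with the mean of probes. Members called were 1 at 6 h with an intensity trend, 0 averaged with array median scaling, no scaling, no filter or the replicate block, 3 without scaling, 9 without a filter and 9 with only the arrays compared over time with control supernatant, and 5 without scaling and 6 without a filter with knockdown supernatant. Without scaling, the changes over time with knockdown supernatant of Fdps, Msmo1, Hsd17b7, Tm7sf2, Sc5d, Nr1h2 and Idi1 were -0.18, -0.17, -0.17, -0.15, -0.13, -0.11 and -0.080, none called. With each array left out in turn, members called were 0 to 0 for the knockdown at 3 h, 0 to 0 at 6 h, 0 to 1 averaged, 0 to 0 for the difference of effects, 9 to 13 over time with control supernatant and 7 to 18 over time with knockdown supernatant. Their median was -0.049 to -0.0100 for the knockdown at 3 h, 0.027 to 0.072 at 6 h, -0.013 to 0.024 averaged, 0.054 to 0.11 for the difference of effects, -0.077 to -0.032 over time with control supernatant and 0.022 to 0.038 over time with knockdown supernatant. Over all features, called counts ran from 0 to 300 at 3 h (64 as reported), 0 to 1956 at 6 h (574), 71 to 1995 averaged (789), 0 to 295 for the difference (0), 5734 to 12169 over time with control supernatant (10250) and 5498 to 12287 with knockdown supernatant (10349). The 2 arrays of equal number did not deviate together (correlations -0.05 to 0.09), so the numbers were not taken as pairs; with the replicate block 0, 0, 0 and 0 members were called in the knockdown comparisons and their difference, and 12 and 16 over time. No fit of only the arrays compared exists for the averaged comparison or the difference, which use all 8 arrays. Where an alternative ended a call, the cause was not tested. All 30 members were well above background on all 8 arrays, but low signal left the size of the Abcg1 change open to the background correction: 0.94 and 1.00 as reported against 0.55 and 0.52 with normexp.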
